A study of Mus musculus with 8 samples.

Results

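Transcripts of 10 genes used as markers of injured or incompletely repaired kidney tubule were measured in 8 samples of mouse kidney. The genes were Havcr1, Lcn2, Vcam1, Spp1, Clu, Timp1, Sox9, Cd44, Dcdc2a and Itgb6. They were chosen by name, with earlier results of these data known, and all 10 were found among the 15948 genes of the deposited table. By their known products, Lcn2, Spp1, Clu and Timp1 are secreted and Havcr1, Vcam1, Cd44 and Itgb6 lie at the cell surface. Sox9 acts in the nucleus and Dcdc2a on microtubules inside the cell, so these 2 genes are injury markers but neither secreted nor surface proteins. The labels gave 3 samples as Arhgef11Sglt2 DOCA and 5 as Sglt2Cre DOCA, all from kidney of Mus musculus. The labels state neither strain nor sex nor age. The study's title speaks of a systemic and a proximal tubule-specific knockout of Arhgef11, a guanine nucleotide exchange factor that activates RhoA, and of hypertension and kidney injury. The names place Cre recombinase under Sglt2 (Slc5a2), which carries glucose in early proximal tubule cells, so the targeted cells are only part of a whole kidney. Both groups carried the DOCA label, which in hypertension research stands for the mineralocorticoid deoxycorticosterone acetate. All 8 samples of the study carried that label, so every comparison below is between genotypes under DOCA.

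When tubule epithelium is injured, surviving cells lose the transporters of the mature segment and turn on a set of genes that the healthy proximal tubule expresses at low levels. Havcr1 (KIM-1) and Lcn2 (NGAL) are read in urine or blood as signs of acute damage, Havcr1 being made mainly by the proximal tubule and Lcn2 mainly by the distal nephron and by neutrophils. Sox9 marks cells that re-enter a regenerative state. Vcam1 and Dcdc2a mark proximal tubule cells that do not complete repair in mouse models, and Spp1, Clu, Timp1, Cd44 and Itgb6 accompany fibrosis, inflammation or adhesion changes.

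Promoter sequence is shown for 3 members that stood for the different patterns described below: Lcn2, higher in every Arhgef11Sglt2 library; Timp1, which went apart between them; and Itgb6, the member with a negative difference. The windows run from 250 bases before to 50 bases after the annotated start (RefSeq, GRCm38.p6, read along the strand of the gene; the deposited values were made on another build). Capitals mark matches to the letters TTGCNNAA of C/EBP factors, searched on both strands.
Lcn2, chr2:32387690-32387989, minus strand: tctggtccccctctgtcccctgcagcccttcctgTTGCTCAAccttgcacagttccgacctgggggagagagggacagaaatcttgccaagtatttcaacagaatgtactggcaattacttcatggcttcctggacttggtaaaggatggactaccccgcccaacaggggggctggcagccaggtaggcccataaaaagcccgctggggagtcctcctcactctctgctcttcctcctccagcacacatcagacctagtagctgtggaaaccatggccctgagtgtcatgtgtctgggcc
Timp1, chrX:20869916-20870215, plus strand: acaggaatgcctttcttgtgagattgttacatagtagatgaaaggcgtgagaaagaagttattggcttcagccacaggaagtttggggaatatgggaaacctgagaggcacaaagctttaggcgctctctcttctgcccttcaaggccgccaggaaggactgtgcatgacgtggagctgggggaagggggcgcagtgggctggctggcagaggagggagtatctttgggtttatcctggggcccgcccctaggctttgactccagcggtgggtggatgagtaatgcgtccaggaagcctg
Itgb6, chr2:60722554-60722853, minus strand: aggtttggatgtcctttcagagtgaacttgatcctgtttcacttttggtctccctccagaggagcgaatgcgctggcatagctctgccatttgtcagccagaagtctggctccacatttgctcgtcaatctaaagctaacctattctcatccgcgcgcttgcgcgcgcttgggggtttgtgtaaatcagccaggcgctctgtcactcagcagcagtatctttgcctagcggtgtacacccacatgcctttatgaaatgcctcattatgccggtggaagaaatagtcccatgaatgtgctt
Of the 10 genes, 7 had windows in the sequence table, 11 windows in all. The letters TTGCNNAA were in the Lcn2 window, starting at position 35 of it, and in 1 window each of Havcr1 and Spp1. They were thus in 3 of the 11 windows, from 3 of the 7 genes, and in 10.8% of 32851 promoters of the same length. The letters TGANTCA of AP-1, TTCNNNGAA of STAT factors and the NF-kB consensus matched none of the 3 windows shown; 7.808%, 8.298% and 4.505% of all promoters held them. Among the other windows, AP-1 letters were in 1 of Havcr1 and STAT letters in the 1 of Dcdc2a. These matches describe letters and not binding.

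Values are normalized counts per library, obtained from the deposited log2 values on a variance-stabilized scale. Log2 differences and standard errors are on that deposited scale, which compresses low genes, and fold changes are ratios of group means of normalized counts. Tests used limma over all 15948 genes, with Benjamini-Hochberg adjustment and a threshold of 0.05. Normalized counts summed to 43.0 to 45.7 M (M for mega) in the Arhgef11Sglt2 libraries and 45.2 to 46.7 M in the Sglt2Cre libraries. Gaps between low values put the sequenced depth at 51.3 to 57.9 M reads in the Arhgef11Sglt2 libraries and 29.8 to 45.9 M reads in the Sglt2Cre libraries. For Arhgef11Sglt2 replicate 2 and Sglt2Cre replicates 1, 3 and 4 a narrower gap matched more of the low values, which would put their depth at 103 M reads for the first and 59.5 to 86.6 M reads for the others, so the depths are uncertain. The targeted gene Arhgef11 had 2935, 3919 and 3905 normalized counts in Arhgef11Sglt2 replicates 1, 2 and 3, against 3479 to 3928 in the Sglt2Cre libraries (limma adjusted p = 0.834). Slc5a2 had 10933, 18027 and 13907 against 14406 to 21253 (limma adjusted p = 0.214). Whole-kidney RNA therefore did not check the labels, and directions below refer to libraries as labelled. The labels do not call the samples separate animals, and p-values measure only the spread between these samples, which may be technical.

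The question was whether tubule injury markers differed between Arhgef11Sglt2 and Sglt2Cre samples under DOCA, and whether the markers went together. Lcn2 rose in the Arhgef11Sglt2 libraries, 3.14-fold, and Sox9 was also above every Sglt2Cre library in all 3 of them without passing the threshold. The other members did not pass. Havcr1, Vcam1, Timp1, Cd44, Dcdc2a and Clu were above the Sglt2Cre range only in Arhgef11Sglt2 replicate 1, and Itgb6 was below that range in replicates 2 and 3. Of the 10 members, 1 was called in limma, where 2.22% of all genes were called, 0.627% higher and 1.59% lower. The groups did not overlap for 2 members, Lcn2 and Sox9, both higher in Arhgef11Sglt2 libraries. Over all genes 14.3% did not overlap, 6.2% with the Arhgef11Sglt2 libraries above and 8.14% with them below, so the members' count of 2 of 10 lay near the background. The log2 difference was positive for 9 members, with a median of 0.29 over the 10 and of -0.01 over all genes.

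**Figure D1:**
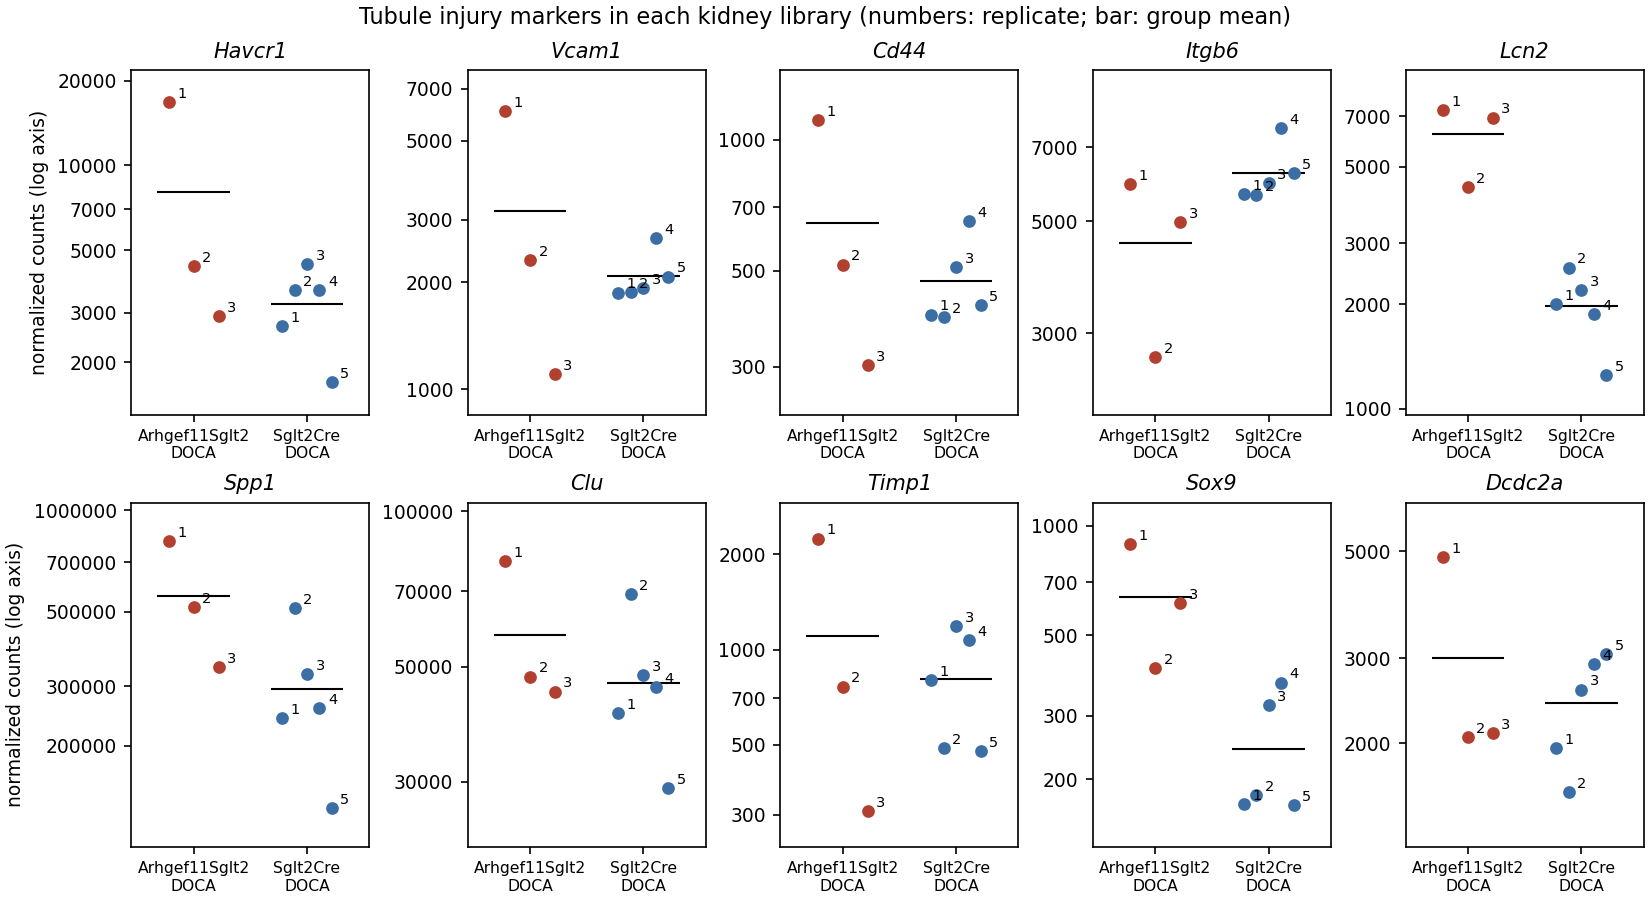
Normalized counts (log axis) of the 10 injury markers, 1 panel per gene, with Arhgef11Sglt2 DOCA (n = 3) left of Sglt2Cre DOCA (n = 5). Points are libraries numbered by replicate and bars are group means; Lcn2 and Sox9 show no overlap between the groups, while for Havcr1 replicate 1 of the Arhgef11Sglt2 group stands alone at 16766.

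Among the secreted proteins, Lcn2 is a small carrier of iron-binding siderophores released by stressed tubule cells. It had 7302, 4352 and 6932 normalized counts in Arhgef11Sglt2 replicates 1, 2 and 3, against 2007, 2553, 2196, 1872 and 1249 in Sglt2Cre replicates 1 to 5. All 3 Arhgef11Sglt2 libraries lay above all 5 Sglt2Cre libraries, and their highest values came from replicates 1 and 3. Means were 6195 ± 1607 in Arhgef11Sglt2 and 1976 ± 480 in Sglt2Cre libraries (SD, n = 3 and n = 5). On the log2 scale Lcn2 was higher by 1.42 (SE 0.19; 0.99 to 1.86 at 95% confidence), and the limma adjusted p was 0.0154. That adjusted p was 0.0581 without Arhgef11Sglt2 replicate 3 and 0.0565 without Sglt2Cre replicate 4, where the log2 difference was 1.33 and 1.41. Over the 17 alternatives it ran from 0.00825 to 0.189, the upper end with the replicate number as a block.

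Spp1 (osteopontin), a phosphorylated matrix protein that binds integrins and CD44, was the most abundant member. It had 810293, 516033 and 343256 normalized counts in Arhgef11Sglt2 replicates 1, 2 and 3, against 241763, 512083, 326627, 259203 and 130534 in Sglt2Cre replicates 1 to 5. Every Arhgef11Sglt2 value was above 4 of the 5 Sglt2Cre values, but Sglt2Cre replicate 2 lay level with Arhgef11Sglt2 replicate 2. Spp1 made up 1.88% of all normalized counts in Arhgef11Sglt2 replicate 1, where it was the third most abundant gene, and 0.289% in Sglt2Cre replicate 5. The log2 difference of 0.97 (SE 0.41; 0.05 to 1.88 at 95% confidence) gave a limma adjusted p of 0.212. The spread between libraries was wide in both groups, with a log2 SD of 0.62 in Arhgef11Sglt2 and 0.71 in Sglt2Cre libraries.

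Clu (clusterin), a secreted chaperone, had 79963, 47885 and 44803 normalized counts in Arhgef11Sglt2 replicates 1, 2 and 3, and 29194 to 69276 in the Sglt2Cre libraries. Its log2 difference was 0.31 (SE 0.27, limma adjusted p = 0.545). Sglt2Cre replicate 2 was the highest and replicate 5 the lowest of that group for Clu, as they were for Spp1 and Lcn2. Timp1, described next, was also lowest in Sglt2Cre replicate 5 but highest in Sglt2Cre replicate 3.

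Timp1, an inhibitor of matrix metalloproteinases, had 2244.4, 763 and 309 normalized counts in Arhgef11Sglt2 replicates 1, 2 and 3. The Sglt2Cre libraries had 798, 489, 1184, 1072 and 479. Replicate 1 lay above and replicate 3 below all Sglt2Cre libraries, a 7.26-fold range within the Arhgef11Sglt2 group against 2.47-fold within the other. The log2 difference of 0.14 (SE 0.36, limma adjusted p = 0.865) became -0.36 without Arhgef11Sglt2 replicate 1. Timp1 lies within Syn1 on the opposite strand; the library kit keeps strand, but the sources used here do not say whether the counting used it.

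Among the surface proteins, Havcr1 is a phosphatidylserine receptor with which tubule cells engulf dead cells. It had 16766, 4401 and 2916 normalized counts in Arhgef11Sglt2 replicates 1, 2 and 3, against 2694, 3605, 4449, 3618 and 1693 in Sglt2Cre replicates 1 to 5. Replicate 1 was 5.22 times the Sglt2Cre mean, whereas replicates 2 and 3, at 1.37 and 0.908 times, lay within the Sglt2Cre range. Its log2 difference of 0.88 (SE 0.46; -0.14 to 1.90 at 95% confidence) gave a limma adjusted p of 0.299. Without Arhgef11Sglt2 replicate 1 that difference was 0.19, and the ratio of means was 1.14, against 2.50 with all libraries. The related gene Timd2 had 5345, 3377 and 2304 normalized counts in Arhgef11Sglt2 replicates 1, 2 and 3 and 2581 to 4625 in the Sglt2Cre libraries, and reads that match both genes may be divided between them.

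Vcam1, an adhesion molecule that holds leukocytes and is also made by endothelium, had 6067, 2312 and 1103 normalized counts in Arhgef11Sglt2 replicates 1, 2 and 3. The Sglt2Cre libraries were close together, with 1868, 1878, 1925, 2666 and 2074. Replicate 1 was 2.91 times and replicate 3 was 0.53 times the Sglt2Cre mean, both outside the Sglt2Cre range in opposite directions. The log2 difference of 0.27 (SE 0.35, limma adjusted p = 0.707) became -0.28 without replicate 1.

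Cd44, a receptor for hyaluronan and osteopontin carried by leukocytes and injured epithelium, had 1113, 516 and 303 normalized counts in Arhgef11Sglt2 replicates 1, 2 and 3. The Sglt2Cre libraries had 396, 391, 508, 650 and 416. The pattern was that of Vcam1, with replicate 1 above and replicate 3 below all Sglt2Cre libraries. The log2 difference of 0.19 (SE 0.21, limma adjusted p = 0.648) became -0.11 without replicate 1.

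Itgb6, the integrin subunit that joins Itgav in epithelia and releases active TGF-beta, had 5909, 2698 and 4972 normalized counts in Arhgef11Sglt2 replicates 1, 2 and 3. The Sglt2Cre libraries had 5655, 5631, 5947, 7632 and 6227. It was the member with a negative difference, -0.47 (SE 0.20, 95% interval -0.91 to -0.03), and a limma adjusted p of 0.209. Replicate 2 was lowest, at 0.434 times the Sglt2Cre mean, and without it the difference was -0.17. Its partner Itgav had 12190, 9691 and 11819 normalized counts in Arhgef11Sglt2 replicates 1, 2 and 3 and 7912 to 10245 in Sglt2Cre libraries (limma adjusted p = 0.155).

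Of the 2 intracellular members, Sox9 is a transcription factor of nephron progenitors that injured tubule cells express again. It had 892, 406 and 614 normalized counts in Arhgef11Sglt2 replicates 1, 2 and 3, against 171, 181, 321, 370.0 and 169.7 in Sglt2Cre replicates 1 to 5. No Sglt2Cre library reached any Arhgef11Sglt2 library, although Sglt2Cre replicate 4 came close to Arhgef11Sglt2 replicate 2. The means differed 2.63-fold, 637 ± 244 in Arhgef11Sglt2 and 243 ± 95.6 in Sglt2Cre libraries (SD, n = 3 and n = 5). On the compressed log2 scale the difference was 0.70 (SE 0.16; 0.34 to 1.07 at 95% confidence), with a limma adjusted p of 0.0577. It was 0.87 with an adjusted p of 0.0304 without Arhgef11Sglt2 replicate 2, and over the 17 alternatives the limma adjusted p ran from 0.0304 to 0.206.

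Dcdc2a, a doublecortin-domain protein of microtubules and cilia, had 4853, 2064 and 2099.9 normalized counts in Arhgef11Sglt2 replicates 1, 2 and 3. The Sglt2Cre libraries had 1956, 1587, 2584, 2916 and 3056. Replicates 2 and 3 lay inside the Sglt2Cre range and replicate 1 was 2.01 times the Sglt2Cre mean. The log2 difference of 0.20 (SE 0.26, limma adjusted p = 0.694) became -0.15 without replicate 1.

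**Figure D2:**
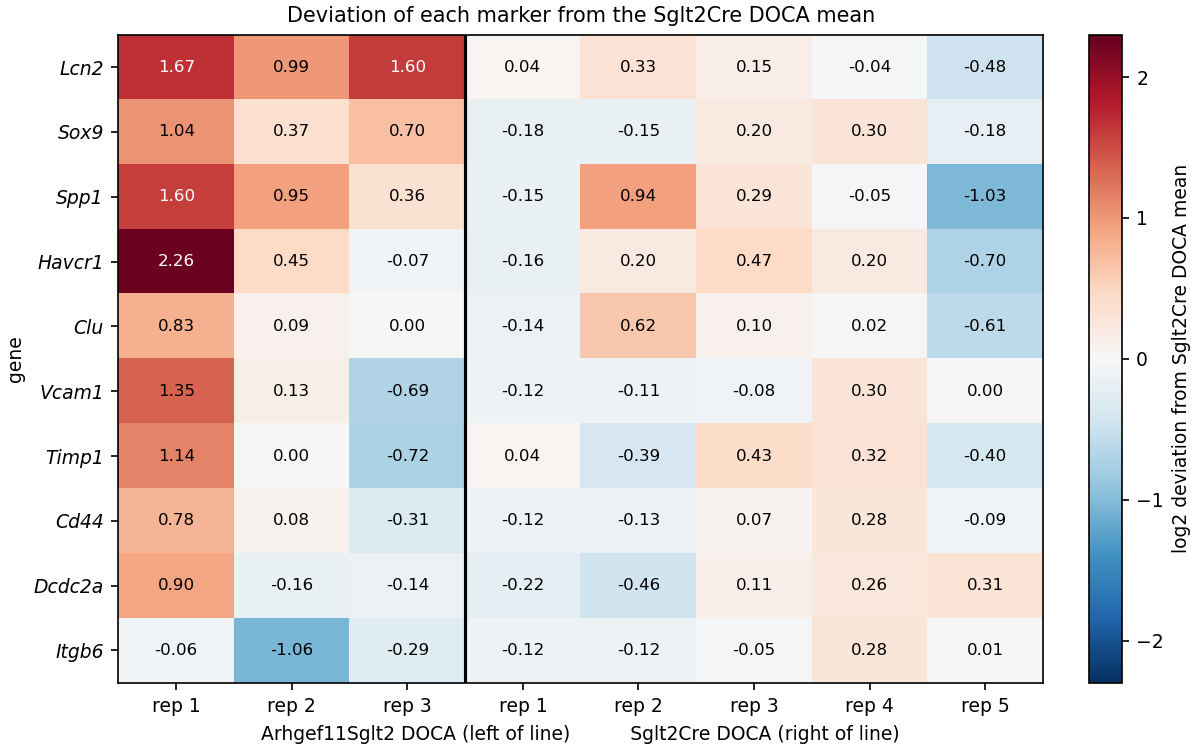
Log2 deviation of each marker (rows) from the Sglt2Cre DOCA mean on the deposited scale, with the 3 Arhgef11Sglt2 DOCA libraries left of the line and the 5 Sglt2Cre DOCA libraries right of it. Arhgef11Sglt2 replicate 1 is high in every row but Itgb6, and replicate 3 combines 1.60 for Lcn2 with -0.72 for Timp1.

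The members agreed in replicate 1 of the Arhgef11Sglt2 group and disagreed in the other libraries of that group. In replicate 1, 9 of the 10 members were above every Sglt2Cre library and none below; 22.5% of all genes were above and 22.4% below in that library. In replicate 2, 3 members were above (Lcn2, Sox9 and, by a narrow margin, Spp1) and 1 below (Itgb6), where 21.6% of all genes were above and 25.7% below. In replicate 3, 2 members were above (Lcn2 and Sox9) and 4 below (Vcam1, Timp1, Cd44 and Itgb6), where 28.6% of all genes were above and 33.3% below. Replicate 1 was at least 2-fold above replicate 3 for 6 members, Havcr1, Vcam1, Spp1, Timp1, Cd44 and Dcdc2a, as for 8.96% of all genes. For 3 members, Vcam1, Timp1 and Cd44, replicate 1 was above and replicate 3 below every Sglt2Cre library, as for 5.14% of all genes. The members' shares in replicates 2 and 3 lay near those of all genes, in replicate 1 they did not. These are single libraries, so the counts describe them and have no replicate check. When the highest Sglt2Cre library for several members, replicate 4, was left out, 5 members lay above in Arhgef11Sglt2 replicate 2.

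Lcn2 and Havcr1, both read as markers of acute tubule damage, differed most in replicate 3, where Lcn2 was 3.51 times and Havcr1 0.908 times the Sglt2Cre mean. In replicate 1 they were 3.70 and 5.22 times that mean, and in replicate 2 they were 2.20 and 1.37 times. The library numbers in the labels fell in a lower range (Arhgef11Sglt2 replicates 1 and 2, Sglt2Cre replicates 1, 2 and 3) and a higher one (Arhgef11Sglt2 replicate 3, Sglt2Cre replicates 4 and 5). What the ranges stand for is not stated. Within the lower and the higher range, the log2 difference was 1.16 and 1.86 for Lcn2, 0.74 and 0.64 for Sox9, and 0.91 and 0.90 for Spp1. It was 1.19 and 0.19 for Havcr1, 0.26 and 0.29 for Clu, and -0.46 and -0.43 for Itgb6. The sign differed between the ranges for Vcam1 (0.84 and -0.84), Timp1 (0.54 and -0.68), Cd44 (0.50 and -0.41) and Dcdc2a (0.56 and -0.42), and the higher range holds 1 Arhgef11Sglt2 library.

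**Figure D3:**
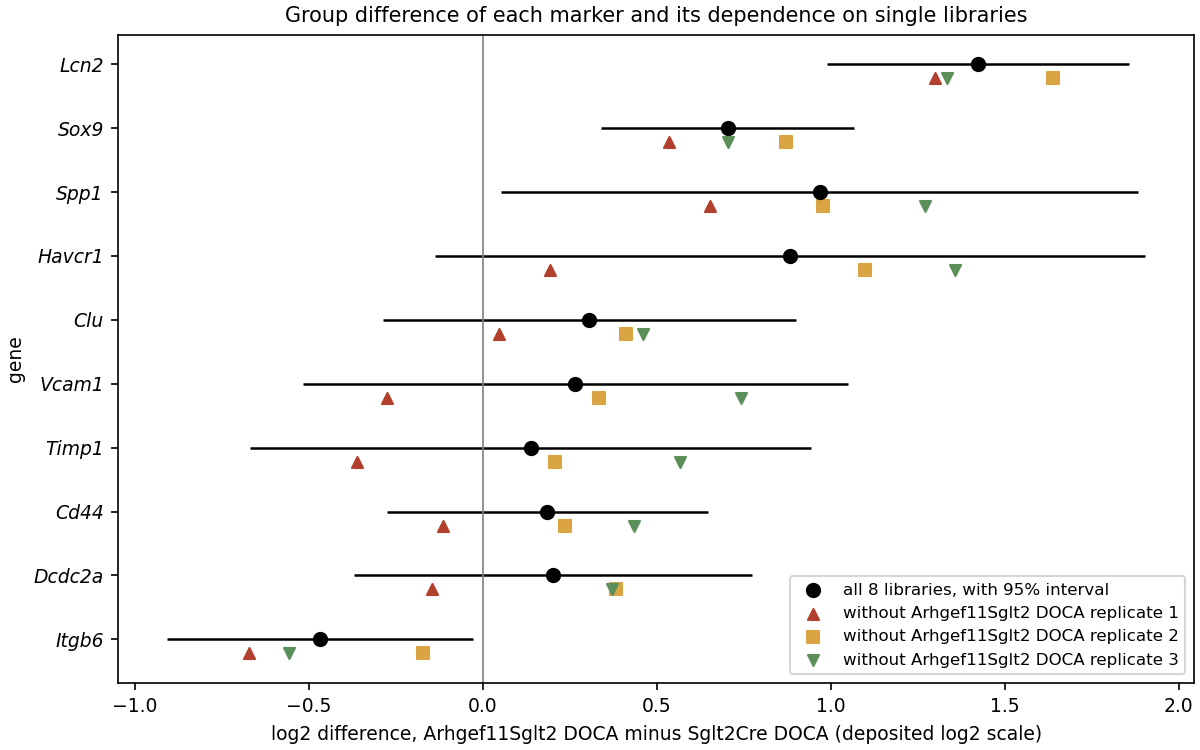
Log2 difference of each marker (Arhgef11Sglt2 DOCA minus Sglt2Cre DOCA, deposited log2 scale) over all 8 libraries with its 95% interval (black), and without each Arhgef11Sglt2 library in turn (coloured symbols). Lcn2 stays between 1.30 and 1.64, whereas Vcam1, Timp1, Cd44 and Dcdc2a change sign without replicate 1.

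Levels between genes were compared per kilobase of the longest protein-coding transcript in GENCODE M21. Spp1 led with 369295 normalized counts per kilobase in Arhgef11Sglt2 and 195117 in Sglt2Cre libraries, and Clu followed with 31796 and 25753. In Sglt2Cre libraries the order then ran Lcn2 (2159), Havcr1 (1582), Itgb6 (1294), Timp1 (911), Vcam1 (600.3), Dcdc2a (365), Cd44 (84.1) and Sox9 (58.7). Of these neighbours, the ranges over Sglt2Cre libraries overlapped for all but Dcdc2a and Vcam1, Dcdc2a and Cd44, Clu and Lcn2, and Spp1 and Clu. In Arhgef11Sglt2 libraries, Lcn2 had 6771 and Havcr1 3954 normalized counts per kilobase, but the ranges, 4756 to 7980 for Lcn2 and 1436 to 8259 for Havcr1, overlapped. Timp1 (350 to 2542) and Itgb6 (561 to 1230) also overlapped there, as did Sox9 (98.1 to 216) and Cd44 (54.0 to 198), so no order is given for these pairs.

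Of the 37 other injury and failed-repair genes in the list used here, all measured, 4 rose in limma over all genes and none fell. Of all genes, 0.627% rose and 1.59% fell, and the median log2 difference of the list was 0.35. The list was chosen with earlier results of these data known, so its counts are not independent of the data. Krt20, a keratin of damaged tubule, had 2481, 697 and 626 normalized counts in Arhgef11Sglt2 replicates 1, 2 and 3, against 120.0, 294, 245, 122 and 68.2 in Sglt2Cre replicates 1 to 5 (7.47-fold, limma adjusted p = 0.0458). Gdf15, a secreted stress cytokine, had 606, 653 and 1199 against 382, 175, 339, 337 and 221 (2.82-fold, limma adjusted p = 0.0401). Myc, a growth-related transcription factor, had 1166, 924 and 1827 against 670.4, 358, 619, 598 and 454 (2.42-fold, limma adjusted p = 0.0417). Cxcl1, which attracts neutrophils, had 706, 235 and 373 against 106, 86.2, 158, 164 and 81.7 (3.67-fold, limma adjusted p = 0.0484). For all 4 the groups did not overlap, with the Arhgef11Sglt2 libraries above, as for 6.2% of all genes. The 4 were named because they passed, which favours such a gap. Gdf15 and Myc were highest in replicate 3, Krt20 and Cxcl1 in replicate 1. The number called was 8 without Arhgef11Sglt2 replicate 1 and 12 without replicate 2. It was 0 without Arhgef11Sglt2 replicate 3 or without any single one of the 5 Sglt2Cre libraries, where limma gave 13 to 17 genes an unadjusted p under 0.05. Calls over all genes moved too: against 354 with all libraries there were 1334 without Arhgef11Sglt2 replicate 1, 444 without replicate 2, and 24 to 284 in the fits that called none of the list. By library, 33 of the 37 were above every Sglt2Cre library and 0 below in Arhgef11Sglt2 replicate 1. In replicate 2 there were 11 above and 6 below, and in replicate 3 there were 20 above and 9 below. Of all genes, 22.5%, 21.6% and 28.6% were above and 22.4%, 25.7% and 33.3% below in replicates 1, 2 and 3.

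Ligands, receptors and enzyme targets of the members were described by a list of 23 genes, 22 of them measured. None of these rose and 2 fell in limma, where 0.627% of all genes rose and 1.59% fell. The median log2 difference of the list was 0.05. Both genes that fell encode receptors reported to take up Lcn2. Slc22a17 had 824, 976 and 928 normalized counts in Arhgef11Sglt2 replicates 1, 2 and 3, against 1352, 1224, 1186, 1292 and 1245 in Sglt2Cre replicates 1 to 5 (1.39-fold lower, limma adjusted p = 0.0394). Lrp2 (megalin), the endocytic receptor of the proximal tubule, had 70440, 85850 and 53235 against 100570, 116530, 116321, 119977 and 116372 (1.63-fold lower, limma adjusted p = 0.0462). For each, all Arhgef11Sglt2 libraries lay below all Sglt2Cre libraries, as for 8.14% of all genes. Both genes were named because they passed, which favours such an arrangement. Neither passed without Arhgef11Sglt2 replicate 3 or without any single Sglt2Cre library, which left 0 of the 22 called and 6 to 8 with an unadjusted p under 0.05 in limma, and Lrp2 did not pass (adjusted p = 0.0512) with libraries scaled to equal totals. In whole kidney, fewer cells of a type and less RNA per cell cannot be told apart.

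Among the 11 measured of 15 family relatives, none passed in limma, 3 had an unadjusted p under 0.05, and the median log2 difference was -0.02. Icam1, the adhesion molecule closest in role to Vcam1, had 3369, 2185 and 2843 normalized counts in Arhgef11Sglt2 replicates 1, 2 and 3, against 1807, 1429, 2211, 2085 and 1839 in Sglt2Cre replicates 1 to 5 (limma adjusted p = 0.0979). Timp3, a matrix-bound inhibitor of metalloproteinases, had 63422, 59146 and 68131 in Arhgef11Sglt2 libraries and 65487 to 87709 in Sglt2Cre libraries (limma adjusted p = 0.225). The integrin subunits Itgb7 (109 to 113 in Arhgef11Sglt2 replicates 1 and 2 and 60.0 in replicate 3, against 111 to 234 in Sglt2Cre libraries) and Itgb8 (5070.3 to 8194 against 7151 to 8820.3) had limma adjusted p of 0.195 and 0.378.

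Several members are also made outside the tubule, by leukocytes, endothelium or fibroblasts, so 13 lists of cell type markers were read in the same libraries. For fibroblasts and pericytes (7 genes), summed normalized counts were 47059, 29974 and 15288 in Arhgef11Sglt2 replicates 1, 2 and 3, against 30190.5 to 38033 in Sglt2Cre libraries. For macrophages (8 genes) the sums were 16358, 10476 and 6453 against 9906 to 12034. Both sums thus stood above the Sglt2Cre range in replicate 1 and below it in replicate 3, as Vcam1, Timp1 and Cd44 did, and no gene of either list passed in limma. Gene by gene, 4 of 7 fibroblast and pericyte markers and 6 of 8 macrophage markers were above every Sglt2Cre library in replicate 1. In replicate 3, 4 of 7 and 6 of 8 were below. Of all genes, 22.5% were above in replicate 1 and 33.3% below in replicate 3. The collagen genes Col1a1 and Col3a1 made up most of the first sum. Col3a1 had 22543, 12302 and 3757 normalized counts in Arhgef11Sglt2 replicates 1, 2 and 3, against 12108 to 16879 in Sglt2Cre libraries. The part of these cells in the values of Vcam1, Timp1 and Cd44 was not tested.

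For neutrophils, which also make Lcn2, sums were taken over 5 measured genes. They were 633, 392 and 394 in Arhgef11Sglt2 libraries, against 180 to 402 in Sglt2Cre libraries. In limma 1 gene of the list (Retnlg) rose, where 0.627% of all genes rose. In Arhgef11Sglt2 replicate 1 all 5 genes were above every Sglt2Cre library. In replicates 2 and 3 the genes above were Retnlg and Cxcr2, and none was below in any replicate. Of all genes, 22.5%, 21.6% and 28.6% were above and 22.4%, 25.7% and 33.3% below in replicates 1, 2 and 3. Counts were low: Retnlg had 25.9, 38.5 and 37.2 there, against at most 17.7 in Sglt2Cre libraries. Sglt2Cre replicate 2, with 402, had a neutrophil sum like that of Arhgef11Sglt2 replicates 2 and 3, but the genes in the sum differed. Its Retnlg and Cxcr2 were below both of those libraries, its S100a8 and S100a9 above both, and its Csf3r between them. Lcn2 was 2553 in Sglt2Cre replicate 2 and 4352 and 6932 in Arhgef11Sglt2 replicates 2 and 3, but this comparison rests on 1 Sglt2Cre library. The part of neutrophils in the Lcn2 values was not tested. Proximal tubule markers (10 genes) summed to 265487, 363054 and 245767 in Arhgef11Sglt2 replicates 1, 2 and 3, below the 419078 to 490939 of the Sglt2Cre libraries. All 10 had a negative log2 difference and 4 fell in limma, where 1.59% of all genes fell. The 4 were the transporter genes Slc34a1 and Slc7a13, the aminoacylase gene Acy3, and Lrp2, which was also counted among the receptors above. Endothelial markers (5 genes) summed to 10913 to 13425 in Arhgef11Sglt2 libraries, within the 8256 to 16568 of Sglt2Cre libraries, and none passed.

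Of the remaining 8 lists, thick ascending limb and B and plasma cell (6 genes each) each held 1 gene that fell. These were Cldn10 and Jchain, and none rose, where 1.59% of all genes fell and 0.627% rose. Sums of the thick ascending limb list were 233647 to 282266 in Arhgef11Sglt2 and 277338 to 326590 in Sglt2Cre libraries. Those of the B and plasma cell list were 277 to 757 and 824 to 3303. No gene passed in the lists for distal convoluted tubule (4 genes), collecting duct principal cell, intercalated cell, urothelium and podocyte (5 genes each) or T and NK cell (6 genes). Every defining marker measured was above 0 in all libraries except 1 gene of the T and NK cell list.

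**Figure D4:**
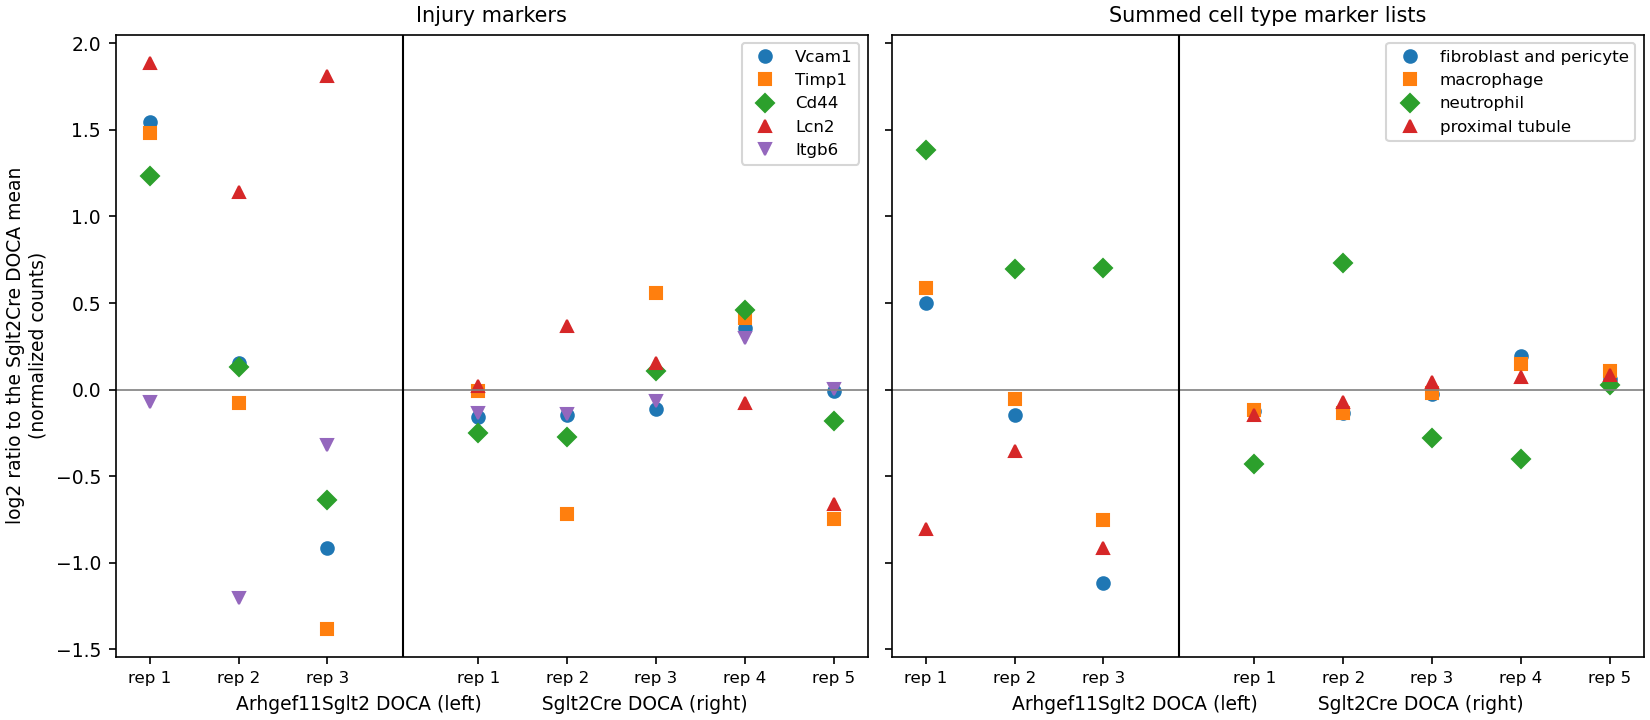
Log2 ratio of each library to the Sglt2Cre DOCA mean, for 5 injury markers (left panel) and for the summed normalized counts of 4 cell type marker lists (right panel), with Arhgef11Sglt2 DOCA libraries left of the line and Sglt2Cre DOCA libraries right of it. Vcam1, Timp1 and Cd44 are high in Arhgef11Sglt2 replicate 1 and low in replicate 3, as are the fibroblast and macrophage sums, while Lcn2 is high in all 3.

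Genes outside the members were ranked by the nearness of their 8 deviations from the Sglt2Cre mean to those of Havcr1 and of Lcn2. Nearness was the root mean square distance in log2 units. Candidates were 12271 genes with a mean of at least 100 normalized counts, without the members, unnamed genes and genes with provisional names. Distances between members were thus not ranked. For Havcr1 the nearest candidates were Serpina10 (distance 0.37), Krt20 (0.46) and Serpina3n (0.46). Both serpins are secreted serine protease inhibitors. Serpina10 had 4337, 1446 and 477 normalized counts in Arhgef11Sglt2 replicates 1, 2 and 3 and 673 to 1418 in Sglt2Cre libraries. For Lcn2 they were Krt20 (0.35), the mitochondrial arginase Arg2 (0.35) and the metallothionein Mt2 (0.36). Arg2 had 1269, 972 and 1292 normalized counts in Arhgef11Sglt2 replicates 1, 2 and 3 and 265 to 614 in Sglt2Cre libraries, and Mt2 had 3567, 3505 and 7317 against 1051 to 2503. Krt20 was thus among the nearest candidates to both, and the likeness describes these 8 libraries only.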

How the data were processed

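Poly(A) RNA of 8 samples of mouse kidney was sequenced as stranded paired-end libraries, per the labels' protocols. Salmon 1.10.0, DESeq2 and the build GRCm39 are named in the submitters' processing notes, without their settings, annotation or gene filter. The authors deposited log2 values on a variance-stabilized scale: they are not whole numbers, and all 8 columns share a minimum of 8.1275, taken as what a gene with no reads receives. Inverting the transformation from that minimum gave normalized counts. Taken in units of 1 read, only 25.6% to 55.5% of values up to 5 fell within 0.02 of a whole number per library; whole reads were therefore not available and count tests were not run.

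limma 3.58.1 in R 4.3.3 fitted group as the only term to all 8 libraries and 15948 genes, with variances following the mean (6 residual degrees of freedom); it was tested on simulated data. Symbols matched 15902 identifiers (99.71%). The members and gene lists were chosen with earlier results of these data known. Named genes were the members, up to 6 called genes of each pathway list or else the 4 with the smallest p, and the nearest genes to Havcr1 and Lcn2; Itgav, Timd2, Ccl2, C3 and called cell type genes were added after their values were seen. Alternatives were a replicate block, a library number range block, equal totals, pseudocounts of 1 and 10, a minimum mean of 100 normalized counts, variance and weight settings, and each library left out.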

Additional observations from a re-analysis of the deposited data

Results flagged for a closer look

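Among the 39 sets of 5 Sglt2Cre values examined for a library far from the others (members, other named genes and summed cell type lists), 4 held one; chance gives about 1 in 20. Vcam1 in Sglt2Cre replicate 4, with 2666 normalized counts, lay above the other Sglt2Cre libraries and below Arhgef11Sglt2 replicate 1. Lrp2 in Sglt2Cre replicate 1, with 100570 normalized counts, lay below the other Sglt2Cre libraries and above every Arhgef11Sglt2 library. The summed thick ascending limb markers in Sglt2Cre replicate 1, 326590 normalized counts, were above, and the summed B and plasma cell markers in Sglt2Cre replicate 2, 824.4 normalized counts, below the rest of that group.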

How the results depend on the processing

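Over 17 alternatives, the 10 members gave 170 log2 differences, of which 159 kept their direction and their side of the threshold. Only Lcn2 passed in the fit of all libraries, so the other members kept their side by not passing. Another 6 differences reversed in sign. With estimated sample weights Timp1 was -0.077 and Dcdc2a -0.051, and the cause was not tested. Leaving out single libraries gave -0.28 to 0.74 for Vcam1, -0.36 to 0.57 for Timp1, -0.11 to 0.43 for Cd44 and -0.15 to 0.38 for Dcdc2a, the negative ends without Arhgef11Sglt2 replicate 1. The number of members called ran from 0 to 2 over libraries left out and was 2 with sample weights (Lcn2 and Itgb6). For the other injury genes it ran from 0 to 12, for ligands, receptors and targets from 0 to 3, for relatives from 0 to 1 (Icam1, without Arhgef11Sglt2 replicate 2), and the members above every Sglt2Cre library in Arhgef11Sglt2 replicate 2 from 3 to 5. Equal totals called 1 gene of the ligand and receptor list, Slc22a17, and moved the called genes of the whole table to 149 higher and 178 lower, against 100 higher and 254 lower.

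Same-numbered replicates of the groups did not deviate together (r across genes -0.18, -0.088 and -0.0068 for numbers 1, 2 and 3). Pairing by number was thus not seen, but such values cannot exclude it, as paired samples need not deviate together. With a replicate block limma called 0 members (2 at an unadjusted p under 0.05), 0 other injury genes (16), 0 ligands and receptors (6) and 0 of all genes; the Lcn2 log2 difference was 1.25. Among the 10 other named genes, 123 of 170 values kept their direction and side, 46 no longer passed, 1 newly passed and 0 reversed. Only genes that passed with all libraries could stop passing, and Icam1, Itgb7, Timp3 and Itgb8 had not passed. With 3 libraries in 1 group, single libraries decide most of these calls, and the estimated depth limits the low genes.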

Other observations

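The values of 2 genes not given above, picked after they were seen, follow. Of these, C3 belongs to the list of other injury and failed-repair genes and was already counted there. Ccl2, a monocyte chemoattractant that incompletely repaired proximal tubule cells also make, had 265, 97.9 and 61.1 normalized counts in Arhgef11Sglt2 replicates 1, 2 and 3, against 81.8 to 187 in Sglt2Cre libraries (limma adjusted p = 0.983). Replicate 1 lay above and replicate 3 below every Sglt2Cre library, as for Vcam1 and Timp1. The complement component gene C3 had 57686, 34447 and 12252 normalized counts in Arhgef11Sglt2 replicates 1, 2 and 3, against 6129 to 16866 in Sglt2Cre libraries (limma adjusted p = 0.0986); replicates 1 and 2 lay above every Sglt2Cre library and replicate 3 within their range.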
